A study of Mus musculus with 3 samples.

Results

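The cells described here are the committed myogenic cells of the mouse forelimb bud, taken as cells of the authors' cluster 2, the muscle cluster, with at least 1 UMI of Myf5 or Myod1 and fewer than 3 UMIs of the neuronal genes Stmn2 and Elavl3 together. A UMI (unique molecular identifier) marks 1 captured transcript molecule. The members were thus chosen by measured counts, those of Myf5, Myod1, Stmn2 and Elavl3, and by the cluster. By this rule 846 of 43950 cells were members. All 846 lay in the library of c57bl6.J embryos at stage E10.5 (B6_E10.5, 18957 cells). The library of c57bl6.J at E9.5 (B6_E9.5, 12773 cells) and that of 129S6.sv at E9.5 (129_E9.5, 12220 cells) held 0 members. All 3 were made from dissected wild-type forelimbs dissociated with trypsin, with 1 reaction for each strain and stage, so that no group had a replicate and no difference between libraries has a replicate check. The sources used here do not say how many embryos a reaction pooled. The libraries held between 93029510 and 124388358 UMIs in all, with medians of 5710 to 7623 UMIs per cell. The files number the clusters and do not name them, so the cell type names used here rest on marker genes. Stage and library cannot be told apart, and 129_E9.5 differs from B6_E10.5 in strain as well.

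Limb muscle comes from the somites. Progenitors marked by the transcription factors Pax3 and Lbx1 leave the edge of the dermomyotome and migrate into the limb bud, guided by the receptor Met and its ligand. There they begin to express Myf5 and Myod1, basic helix-loop-helix factors that commit a cell to muscle by binding E-box sequences. Myog, a later factor of the same family, then drives withdrawal from the cell cycle and the expression of contractile proteins and of the fusion proteins Mymk and Mymx.

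Myf5 and Myod1 chose the members, so their values are a description and carry no test. The muscle cluster held 1498 cells in B6_E10.5, 285 in B6_E9.5 and 647 in 129_E9.5. The neuronal limit left out 2, 0 and 56 of these, none of which had a Myf5 or Myod1 UMI. Of the 1496 other cells of B6_E10.5, 846 were members, a share of 56.6% (exact Clopper-Pearson 95% interval 54 to 59.1). In B6_E9.5 the share was 0 of 285 cells, and in 129_E9.5 it was 0 of 591. Taken as up to 3 counts, these zeros allow UMI-positive cells at a share of up to 1.05% and 0.508%, and set no limit on cells that expressed the genes below detection. Neither gene gave a single UMI in any of the 24993 cells of both E9.5 libraries. The median depth of the muscle class was 10989 UMIs per cell in B6_E9.5, above the 8265 of the members, and 7612 in 129_E9.5, slightly below it. Intervals and limits cover counting error only.

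Detection of 1 UMI depends on depth, and the members were deeper than the 650 muscle-class cells of B6_E10.5 without Myf5 and Myod1 (called uncommitted here), with medians of 8265 against 6937.5 UMIs. With every cell thinned to 2000 UMIs, 28.4% of 1466 cells were positive (26.1 to 30.8). Exactly 1 UMI of the pair was found in 354 members (41.8%), 2 in 201 and at least 3 in 291. At the neuronal limit, 844 members had 0 Stmn2 and Elavl3 UMIs, 2 had 1 and 0 had 2. With at least 2 Myf5 and Myod1 UMIs asked for, the share was 32.9% (30.5 to 35.3). The uncommitted cells therefore include an unknown number of cells in which the transcripts were present and not captured.

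Cells outside the muscle cluster give a level to read this rule against. There, 135 of 17459 cells of B6_E10.5 had a Myf5 or Myod1 UMI (0.773%), at a median depth of 5551 UMIs over all those cells. In limb mesenchyme (cluster 0), which should lack both genes, the share was 0.77% of 15325 cells (0.638 to 0.921) at a median of 5422 UMIs. Myf5 stood at 203 CPM in the members and 1.23 CPM in that mesenchyme, and Myod1 at 91.4 and 0.386 CPM, where CPM is the count scaled to a fixed total of UMIs in the class (counts per 1000000).

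The third marker, Msc (musculin, a basic helix-loop-helix repressor of limb and head muscle progenitors), did not set the members apart from their neighbours. It was counted at 70.8 CPM in the members and 74.5 CPM in uncommitted cells, a ratio of 0.95 (95% interval 0.828 to 1.09). At least 1 Msc UMI was found in 27.9% of members and 24.9% of uncommitted cells, against 0.509% of mesenchymal cells. By library, the muscle class had 0.291 CPM in B6_E9.5, from 1 UMI, and 7.56 CPM in 129_E9.5. Msc was thus at a like level in members and uncommitted cells of E10.5, detected in a minority of either, and low in both E9.5 classes.

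Within the members, 564 cells had Myf5 only (37.7% of the E10.5 muscle class), 128 had Myod1 only (8.56%) and 154 had both (10.3%). Myf5 lies on chromosome 10 (107482908 to 107486134, minus strand) and Myod1 on chromosome 7 (46376474 to 46379099, plus strand) of GRCm38. The highest count in a cell was 14 UMIs for Myf5 and 16 for Myod1. Myod1 was found in 21.4% of Myf5-positive and 16.5% of Myf5-negative muscle-class cells, an odds ratio of 1.39. At equal depth the shares were 9.51% and 9.56%, an odds ratio of 0.994. Among the 28 cells with 6 or more Myod1 UMIs, 10 had any Myf5.

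**Figure D1:**
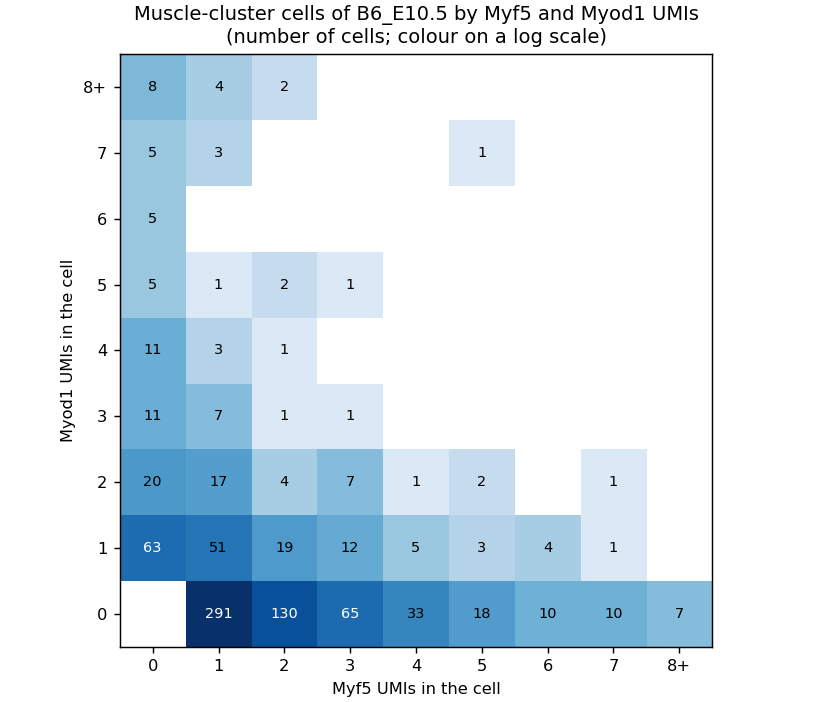
Number of member cells of B6_E10.5 by their Myf5 UMIs (x axis) and Myod1 UMIs (y axis), with counts of 8 or more pooled in the last row and column. The 564 Myf5-only cells fill the bottom row, the 128 Myod1-only cells the left column, and the 154 cells with both the area between.

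Myog, the factor of the next step, marked a minority of the members. At least 1 Myog UMI was found in 119 of the 846 members (14.1%) and in 18 of 650 uncommitted cells (2.77%), and in 0 muscle-class cells of either E9.5 library. Of the 119 cells, 50 were Myod1-only, 41 had both factors and 28 were Myf5-only. Counted per class, Myog stood at 433 CPM in Myod1-only cells (exact Poisson 95% interval 395 to 474), 93.6 CPM in cells with both (78.4 to 111), 8.92 CPM in Myf5-only cells (6.43 to 12.1) and 6.77 CPM in uncommitted cells (4.63 to 9.56). The last pair of intervals overlapped, whereas Myod1-only cells stood above cells with both (4.63-fold, 3.81 to 5.65). Myod1 itself was at 327 CPM in Myod1-only cells and 214 CPM in cells with both, at median depths of 7794 and 9099 UMIs. The part of Myod1 level and depth in the Myog ratio was not tested. The Myog signal was uneven between cells: 50 members had at least 3 Myog UMIs, and the highest cell, a Myod1-only one, had 69.

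To describe how the members vary among themselves, the 282 Myod1-positive cells were set against the 564 Myf5-only cells. Median depths were alike, at 8265 and 8267.5 UMIs. In Myod1-positive cells the genes of the differentiation program were higher, namely Myog, the muscle RNA-binding protein Rbm24, slow skeletal troponin T (Tnnt1), M-cadherin (Cdh15) and myoregulin (Mrln), a micropeptide that acts on the calcium pump. The growth inhibitors Cdkn1c and Gadd45g were higher with them. Meox2, a homeobox gene of limb muscle progenitors, and Sp5, a target of WNT signalling, were lower. A minimum of 50 CPM and 20 UMIs in whichever class was higher left 3010 genes. Of these, 17 differed 2-fold or more upward (0.565%) and 2 downward (0.0664%). These counts, the lower one above all, moved with the setting. They were 34 and 77 in cells thinned to 2000 UMIs, where the balance turned. By their thinned counts, only 140 cells were Myod1-positive and 276 Myf5-only. At a minimum of 20 CPM the counts were 43 and 14, and with at least 2 Myod1 UMIs 33 and 8. The lower count was 7 with each cell weighted equally and 6 in cells of 4000 to 12000 UMIs. Myf5, Myod1, Stmn2 and Elavl3, which define the classes, were not counted in any such comparison. Ratios carry exact conditional binomial intervals and, with 1 library, no test.

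Myog was 26.8-fold higher in Myod1-positive cells (19.6 to 37.6), at 240 against 8.92 CPM. Rbm24 was at 56.1 against 12.3 CPM, 4.55-fold (3.33 to 6.29). Gadd45g, a stress-inducible growth-arrest gene, was at 99.5 against 23.2 CPM, 4.3-fold (3.42 to 5.43). For these 3 genes the intervals of both levels lay far apart, and all were low in mesenchyme, at 0.695, 1.05 and 11.6 CPM. Tnnt1 was 3.56-fold higher (2.9 to 4.39, 109 against 30.6 CPM), Cdh15 2.04-fold (1.63 to 2.54) and Mrln 2.16-fold (1.69 to 2.78). Cdkn1c, the p57 inhibitor of cyclin-dependent kinases, was at 2177 against 847 CPM, 2.57-fold (2.47 to 2.68), while its level in mesenchyme was 876 CPM.

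The other genes at least 2-fold higher were the membrane protein gene Itm2a (3.22-fold), the insulin-like growth factor binding proteins Igfbp3 (2.62-fold) and Igfbp5 (2.33-fold), the kinase gene Nrk (2.52-fold), the tubulin-binding gene Tppp3 (2.41-fold) and the growth factor gene Pdgfa (2.31-fold). With them stood the imprinted zinc-finger genes Peg3 (2.27-fold) and Plagl1 (2.05-fold), the retinoic acid binding protein gene Crabp1 (2.15-fold) and the splicing regulator Celf2 (2.08-fold). All 10 intervals lay above 1. Crabp1, Peg3 and Itm2a were also abundant in mesenchyme, at 359, 496 and 261 CPM, and the part of mesenchymal RNA in their ratios was not tested. Pdgfa, at 147 against 63.5 CPM in the members, was at 2.67 CPM there. On the lower side Sp5 was at 36.2 against 84.3 CPM, 2.33-fold lower (1.85 to 2.96), and Meox2 at 85.2 against 177 CPM, 2.08-fold lower (1.79 to 2.43).

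Gene lists took in genes of lower levels. A list gene counted as higher or lower if it had at least 20 UMIs in the pair, a ratio of at least 2 and an interval that excluded 1. By this rule 140 of 10044 genes were higher (1.39%) and 66 lower (0.657%), with a median log2 ratio of -0.03. Of 12 contractile genes measured, 10 were higher and 0 lower, with a median log2 ratio of 2.71. Some of these genes, among them Ttn, Myh3 and Tnni1 (24 UMIs against 5), reached 20 UMIs only through the Myod1-positive cells. The filter thus favours higher genes, and the count and median are a description. Smooth muscle actin Acta2, an early actin of embryonic muscle, had 101 UMIs against 6 (31.5-fold, 14 to 88), cardiac actin Actc1 47 against 11 (8-fold, 4.09 to 17.1), titin (Ttn) 29 against 5 (10.9-fold, 4.16 to 35.9) and embryonic myosin Myh3 20 against 0, at least 12.5-fold against the limit of 3 UMIs. These transcripts came from few cells: the 47 Actc1 UMIs from 8 cells and the 101 Acta2 UMIs from 31 of the 282.

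Of 8 regulatory factors 4 were higher and 0 lower (median 1.15): Myog, Rbm24, the TEAD cofactor Vgll2 and Mef2c, which works together with the myogenic factors. Vgll2 had 108 UMIs against 27 (7.49-fold, 4.88 to 11.9) and Mef2c 13 against 8 (3.04-fold, 1.17 to 8.47). The E proteins Tcf12 and Tcf3, the binding partners of Myf5 and Myod1, had ratios of 0.861 (0.783 to 0.946) and 0.845 (0.766 to 0.931). Myf6, the last factor of the family, had 0 UMIs in Myod1-positive and 6 in Myf5-only cells. Of 7 surface and synapse genes 5 were higher and 0 lower (median 1.19), among them the fibroblast growth factor receptor Fgfr4 (3.61-fold, 1.83 to 7.45) and rapsyn (Rapsn, 2.27-fold, 1.06 to 4.98), which clusters acetylcholine receptors. The fusion gene Mymx was at 45 UMIs in 20 Myod1-positive cells and 1 UMI in Myf5-only cells (84.3-fold, 14.4 to 3403).

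Genes of the progenitor state had a median near 0 but shifted in both directions. Of 14 premyogenic genes 1 was higher and 1 lower by the rule (median -0.06). Intervals lay above 1 for 3 and below 1 for 4, against 5.42% and 6.47% of all 10044 genes. The list summed to 1632 CPM in Myf5-only cells, 1447 CPM in Myod1-positive cells and 1261 CPM at 3 or more Myod1 UMIs. Pax3 was at 212 CPM in Myod1-positive and 315 CPM in Myf5-only cells, 1.49-fold lower (1.35 to 1.65). Lbx1 had a ratio of 0.881 (0.784 to 0.988), Eya1 0.879 (0.78 to 0.989) and Met 0.931 (0.791 to 1.09). The 1 higher member was Pax7, which marks a later progenitor pool, with 33 UMIs against 28 (2.21-fold, 1.29 to 3.79), and this ratio became 0.739 in thinned cells. Msc was 1.51-fold higher in Myod1-positive cells (1.26 to 1.8).

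**Figure D2:**
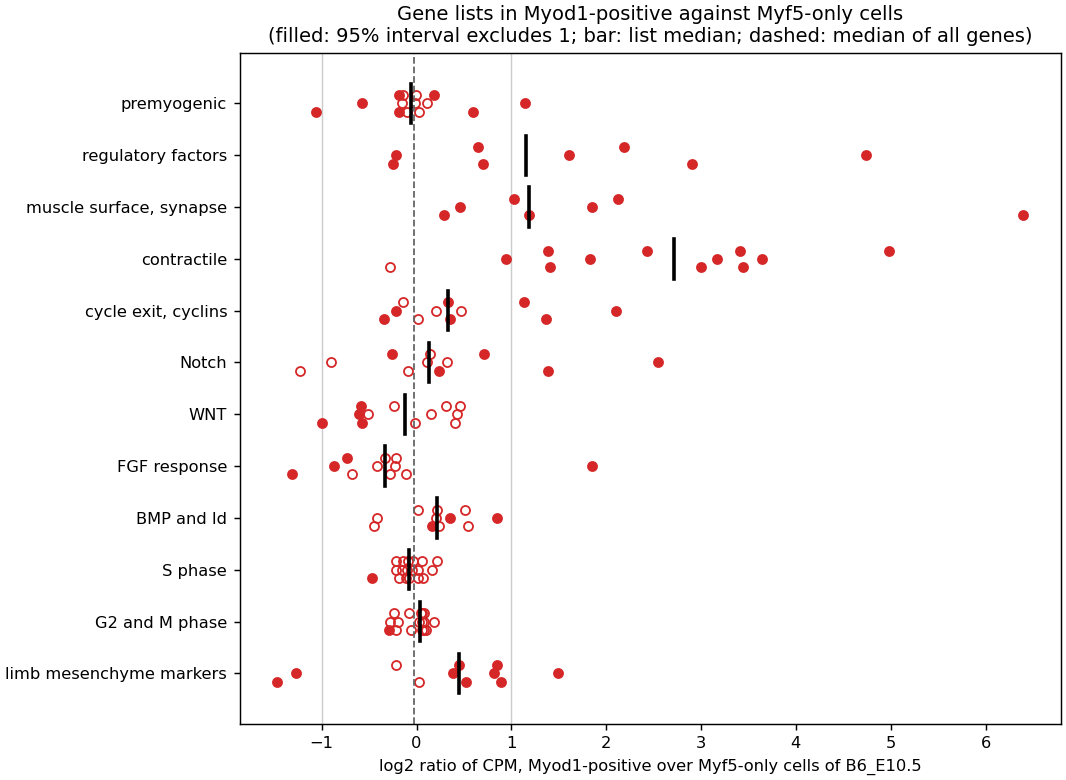
Log2 ratio of CPM in Myod1-positive over Myf5-only cells of B6_E10.5 (x axis) for the members of 12 gene lists with at least 20 UMIs (1 point each); filled points have a 95% interval that excludes 1, bars mark list medians and the dashed line the median of all genes. The contractile list lies farthest right, with a median of 2.71, and some of its genes reached 20 UMIs only through Myod1-positive cells. The medians of the premyogenic, S phase and G2 and M phase lists lie around 0.

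The signalling lists were mixed. Of 11 Notch genes 2 were higher and 0 lower (median 0.13): the ligand Dll1, with 28 UMIs against 9 (5.83-fold, 2.67 to 14), and Lfng, which modifies Notch receptors (2.62-fold, 1.67 to 4.17). The receptor Notch1 had a ratio of 1.08 (0.616 to 1.84), and Heyl, a Notch target, 1.31 (0.424 to 3.82). Of 12 WNT genes 0 were higher and 0 lower by the rule (median -0.12), but 4 had intervals below 1 (6.47% of all 10044 genes did), among them the feedback gene Nkd1 (2-fold lower, 1.55 to 2.6) and the nuclear effector Lef1 (1.49-fold lower, 1.18 to 1.88). Of 11 FGF response genes 1 was higher (Fgfr4) and 1 lower (the effector Etv4, at 17.9 against 44.4 CPM), with a median of -0.33. The chemokine receptor Cxcr4 of migrating progenitors was at 14.3 and 14 CPM, a ratio of 1.02 (0.661 to 1.56).

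Markers of dividing cells differed little between the classes and more within the Myod1-positive cells. Of 18 S phase genes 0 were higher and 0 lower (median -0.08), and likewise of 17 G2 and M phase genes (median 0.04), with Top2a at 487 against 470 CPM. The summed G2 and M phase level was 2448 CPM in Myod1-positive, 2429 CPM in Myf5-only and 2321 CPM in cells with 3 or more Myod1 UMIs. Within the Myod1-positive cells it was 2195 CPM in those with Myod1 only and 2639 CPM in those with both factors. The summed S phase level went the other way, at 2224 and 2082 CPM. Median depths were 7794 and 9099 UMIs, and the part of depth in these sums was not tested. The mitotic kinase genes Aurkb and Aurka, with the lowest ratios of the G2 and M phase list, were 1.86-fold (1.27 to 2.77) and 1.53-fold lower (1.14 to 2.06) in Myod1-only cells. Top2a was 1.19-fold lower (1.06 to 1.34), whereas Cenpf (ratio 1.02, 0.851 to 1.21) and Tpx2 (1.01, 0.804 to 1.27) were level. The cyclin genes moved in both directions. In Myod1-positive cells Ccnd1 and Ccnd2 were 1.27-fold (1.09 to 1.48) and 1.16-fold lower (1.09 to 1.25). Ccnd3 was higher there, at 230 against 179 CPM (1.28-fold, 1.15 to 1.43). In the list of cycle exit genes and cyclins 3 of 11 were higher (Cdkn1c, Gadd45g and Btg2) and 0 lower.

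The same genes were then followed over the number of Myod1 UMIs in a cell, with 158 members at 1, 52 at 2 and 72 at 3 or more. The share of cells with a Myog UMI was 4.96% in Myf5-only cells (3.32 to 7.1), 21.5% at 1 Myod1 UMI (15.4 to 28.8), 26.9% at 2 (15.6 to 41) and 59.7% at 3 or more (47.5 to 71.1). Rbm24 went from 9.57% over 16.5% and 30.8% to 62.5%. For both genes the classes at 1 and 2 UMIs overlapped in their intervals, and the class at 3 or more stood above both for Myog and Rbm24. Pax3 ran the other way, from 85.5% (82.3 to 88.3) over 75.9% and 71.2% to 52.8% (40.7 to 64.7), and Meox2 from 59.9% over 46.8% and 42.3% to 26.4% (16.7 to 38.1). Lbx1 kept to between 66.7% and 72%, with overlapping intervals. Median depths of the 4 classes lay between 8254 and 8400 UMIs. In the same cells thinned to 2000 UMIs the Myog shares were 1.8%, 8.5%, 13.7% and 43.1%.

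**Figure D3:**
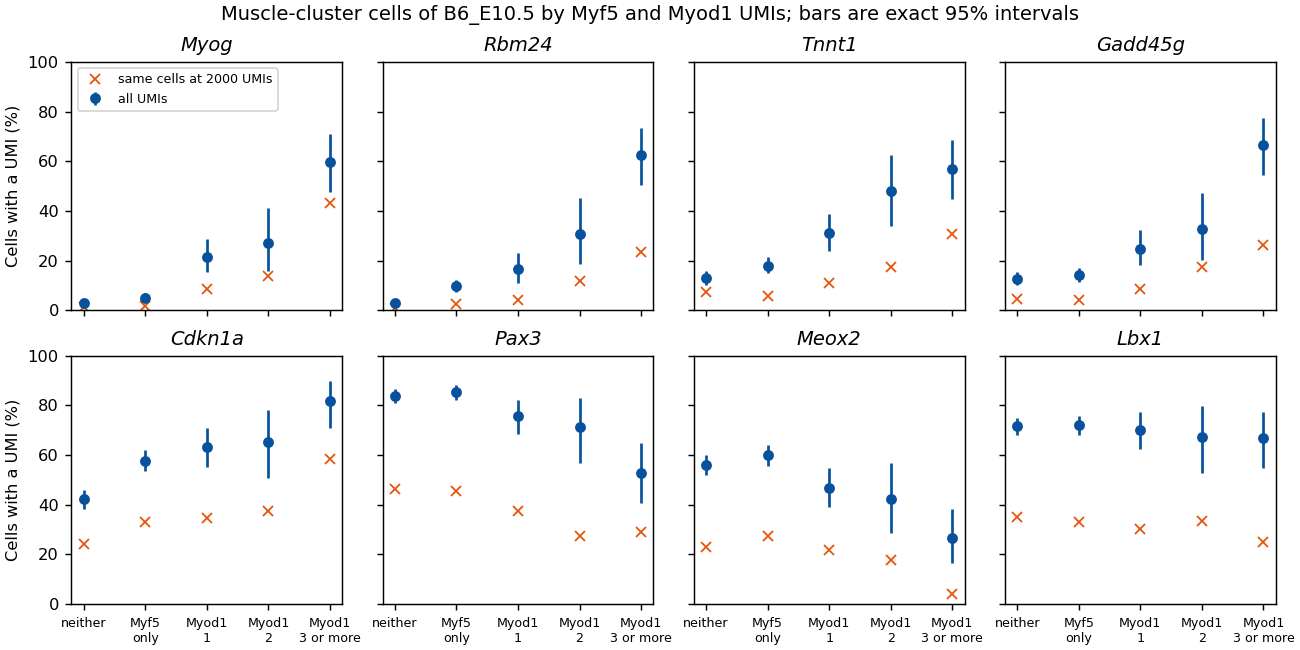
Percent of muscle-class cells of B6_E10.5 with at least 1 UMI of 8 genes (y axis) in cells without Myf5 and Myod1, with Myf5 only, and with 1, 2 or at least 3 Myod1 UMIs (x axis); bars are exact 95% intervals and crosses the same cells thinned to 2000 UMIs. Myog reaches 59.7% and Rbm24 62.5% at 3 or more Myod1 UMIs, where Pax3 is at 52.8% and Meox2 at 26.4%.

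Markers of limb mesenchyme differed between the classes too. Of 11 such markers 7 had intervals above 1 and 2 below 1, against 5.42% and 6.47% of all 10044 genes. Lhx9 was at 39 against 13.8 CPM (2.82-fold, 2.04 to 3.93), Prrx2 1.85-fold and Msx1 1.8-fold higher, while Osr1 was at 12.3 against 34.2 CPM, 2.77-fold lower (1.88 to 4.21), and Twist2 2.41-fold lower. The summed level of the list was 449.3 CPM in Myod1-positive and 357.7 CPM in Myf5-only cells, against 2199 CPM in mesenchyme. More than 2 UMIs of Prrx1, Shox2 and Tbx5 together were found in 16.7% of Myod1-positive and 11.2% of Myf5-only cells. Without those cells the counts were 22 higher and 3 lower, and Myog was 28-fold higher.

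Promoter sequences are shown for the genes the comparison turns on, since Myod1 and Myog bind E-boxes (CANNTG, which reads the same on both strands). They come from RefSeq on GRCm38.p6 and cover up to 250 bases before the annotated start, 5′ to 3′ on the gene's strand, with E-box matches in capitals. For Myog, at chr1:134289754-134289988 (plus strand), the last 15 bases before the start are left out because GENCODE M21 places them in the transcript. For Rbm24 the stretch is chr13:46418050-46418299 (plus strand), and for Myf5 chr10:107486135-107486384 (minus strand).
Myog: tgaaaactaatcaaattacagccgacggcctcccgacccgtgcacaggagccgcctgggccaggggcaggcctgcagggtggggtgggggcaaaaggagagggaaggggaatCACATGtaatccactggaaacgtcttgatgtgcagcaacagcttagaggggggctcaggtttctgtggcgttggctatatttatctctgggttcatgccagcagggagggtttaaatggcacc
Rbm24: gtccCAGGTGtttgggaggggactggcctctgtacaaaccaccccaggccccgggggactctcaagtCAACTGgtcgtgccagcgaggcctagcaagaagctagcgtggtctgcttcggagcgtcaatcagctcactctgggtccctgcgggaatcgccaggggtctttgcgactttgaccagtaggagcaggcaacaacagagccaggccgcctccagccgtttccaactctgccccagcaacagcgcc
Myf5: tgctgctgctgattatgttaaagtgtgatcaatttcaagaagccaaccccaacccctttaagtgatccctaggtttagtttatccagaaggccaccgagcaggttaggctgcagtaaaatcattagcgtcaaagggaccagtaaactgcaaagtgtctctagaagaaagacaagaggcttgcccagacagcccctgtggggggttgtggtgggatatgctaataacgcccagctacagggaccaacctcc

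The Myog window held CACATG 138 bases before the start and CAGTTG 12 bases before it, the latter outside the stretch printed. The Rbm24 window held CAGGTG at 246 bases and CAACTG at 183 bases, and the Myf5 window 0 matches. An E-box match is common: 66.2% of all 32851 RefSeq promoters in the table had at least 1 in the same window and 31.8% at least 2. Of the 17 genes at least 2-fold higher in Myod1-positive cells, 15 had a promoter in the table, 20 promoters in all, and 12 genes had CANNTG. This count is of genes, some with more than 1 promoter, whereas 66.2% is a share of single promoters, so they cannot be compared directly. A match describes letters in a window and not a bound site.

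Taken as 1 group, the members differed little from the 650 uncommitted cells of the same library. Of 2972 genes 6 reached 2-fold upward (0.202%) and 0 downward (0%), or 14 and 1 at a minimum of 20 CPM. With at least 2 UMIs of Myf5 and Myod1 asked of a member, 12 reached it upward. The 6 were Myog at 89.2 against 6.77 CPM (13.2-fold, 9.24 to 19.4), Tnnt1 (2.38-fold, 1.93 to 2.95), Itm2a (2.32-fold, 2.11 to 2.56), the growth factor gene Fgf9 (2.14-fold, 1.74 to 2.64), Celf2 (2.1-fold, 1.78 to 2.48) and Plagl1 (2.03-fold, 1.68 to 2.47). Next came Cdkn1a, the p21 inhibitor of cyclin-dependent kinases, at 341 against 173 CPM (1.98-fold, 1.83 to 2.14), the RhoA exchange factor gene Net1 (1.92-fold), Cdkn1c (1.8-fold), Nrk (1.8-fold), the centrosome gene Cep41 (1.78-fold) and tropomyosin Tpm1 (1.67-fold). Cells with both factors, Myod1 only and Myf5 only all stood above uncommitted cells in Cdkn1a, at 366, 433 and 313 against 173 CPM, and mesenchyme was at 3.25 CPM.

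At the other end, the guidance ligand Slit2 was at 41.7 CPM in members and 71.1 CPM in uncommitted cells, 1.71-fold lower (1.46 to 2). Tmem30b was 1.56-fold lower, the LIM-domain gene Fhl1 1.52-fold, the ephrin receptor gene Epha5 1.51-fold, the tropomodulin gene Tmod3 1.46-fold and Igdcc3 1.46-fold lower. Mdfi, whose product holds back myogenic factors, was 1.39-fold lower (1.24 to 1.57), as were Il11ra1 and Plk2. The cell-cycle factor E2f1 was 1.4-fold (1.2 to 1.63), the calcium pump gene Atp2b1 1.38-fold and Msx1, a homeobox gene that holds back muscle differentiation, 1.36-fold lower (1.15 to 1.62). The lower Msx1 level did not hold in every class of members. Against 54 CPM in uncommitted cells, it was at 31 CPM in Myf5-only cells and 34.2 CPM in cells with both factors, but 84.2 CPM in Myod1-only cells. None of the 12 reached 2-fold.

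By list, 100 of 10683 genes (0.936%) were higher by the rule for lists and 77 lower (0.721%), with a median log2 ratio of -0.01. Contractile genes had 7 higher and 0 lower of 12 (median 1.98), regulatory factors 3 and 0 of 8 (Myog, Vgll2 and Rbm24, median 0.95) and surface and synapse genes 4 and 0 of 7 (Cdh15, Fgfr4, Rapsn and Mymx, median 1.06). Rbm24 was at 27.6 against 3.81 CPM (7.24-fold, 4.46 to 12.5), Cdh15 at 46 against 22 CPM (2.09-fold, 1.67 to 2.63), Actc1 at 58 UMIs against 4 (9.49-fold, 3.51 to 36) and Dll1 at 37 against 9 (2.69-fold, 1.28 to 6.34). Premyogenic genes had 0 higher and 0 lower of 14 (median 0.01). Pax3 was 1.16-fold lower in members (1.09 to 1.25), Lbx1 1.19-fold lower (1.1 to 1.3) and Meox2 1.14-fold lower (1.04 to 1.25). Eya1 (ratio 1, 0.919 to 1.09) and Met (1.12, 0.992 to 1.27) had intervals that included 1. So did Pax7 (1.17, 0.76 to 1.84), Mef2c (2.29, 0.894 to 6.94), Notch1 (1.18, 0.767 to 1.84), Heyl (2.78, 0.907 to 11.4), Cxcr4 (1.34, 0.943 to 1.91) and Myf6, with 6 UMIs in each class (0.655, 0.175 to 2.45).

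The proliferation lists leaned in opposite directions by small amounts. Of 17 G2 and M phase genes 16 had ratios above 1 and 9 intervals above 1 (median log2 ratio 0.16), whereas of 18 S phase genes 15 had ratios below 1 and 8 intervals below 1 (median -0.15). Of all 10683 genes, 5.38% had intervals above 1 and 5.58% below 1. In both lists 0 genes reached 2-fold. The committed cells were also deeper than the uncommitted cells, at medians of 8265 against 6937.5 UMIs, and the part of depth in these list counts was not tested. Of 5 neuronal markers 1 was lower, the LIM-homeobox gene Isl1, at 17.2 against 34.7 CPM (2.02-fold lower, 1.59 to 2.57). Of 5 ectodermal markers 2, Krt8 and Krt18, were lower, from 7 against 13 and 12 against 19 UMIs.

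Myf5-only cells lay close to uncommitted cells by these counts. Of the 564 Myf5-only cells, 291 had 1 Myf5 UMI, and the uncommitted cells include some whose transcripts were not captured. Median depths were 8267.5 and 6937.5 UMIs. The part of capture and depth in this closeness was not tested. Of 2984 genes 1 reached 2-fold upward (0.0335%), Fgf9, at 57.6 against 25.8 CPM (2.23-fold, 1.79 to 2.78), and 0 downward (0%). By the rule for lists 48 of 10389 genes were higher (0.462%) and 58 lower (0.558%). Rbm24 was the member of the regulatory list that was higher (3.23-fold, 1.88 to 5.83), and 0 of 6 contractile genes were. Cdkn1a was 1.81-fold higher (1.66 to 1.98), Cdh15 1.53-fold (1.19 to 1.98) and Hes6, which promotes myogenic differentiation, 1.41-fold (1.27 to 1.55). Myog had a ratio of 1.32 (0.812 to 2.16), Pax3 0.969 (0.902 to 1.04) and Meox2 1.07 (0.969 to 1.18). Msc was 1.24-fold lower in Myf5-only cells (1.06 to 1.45). This comparison shares the Myf5-only cells with the one between Myod1-positive and Myf5-only cells.

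**Figure D4:**
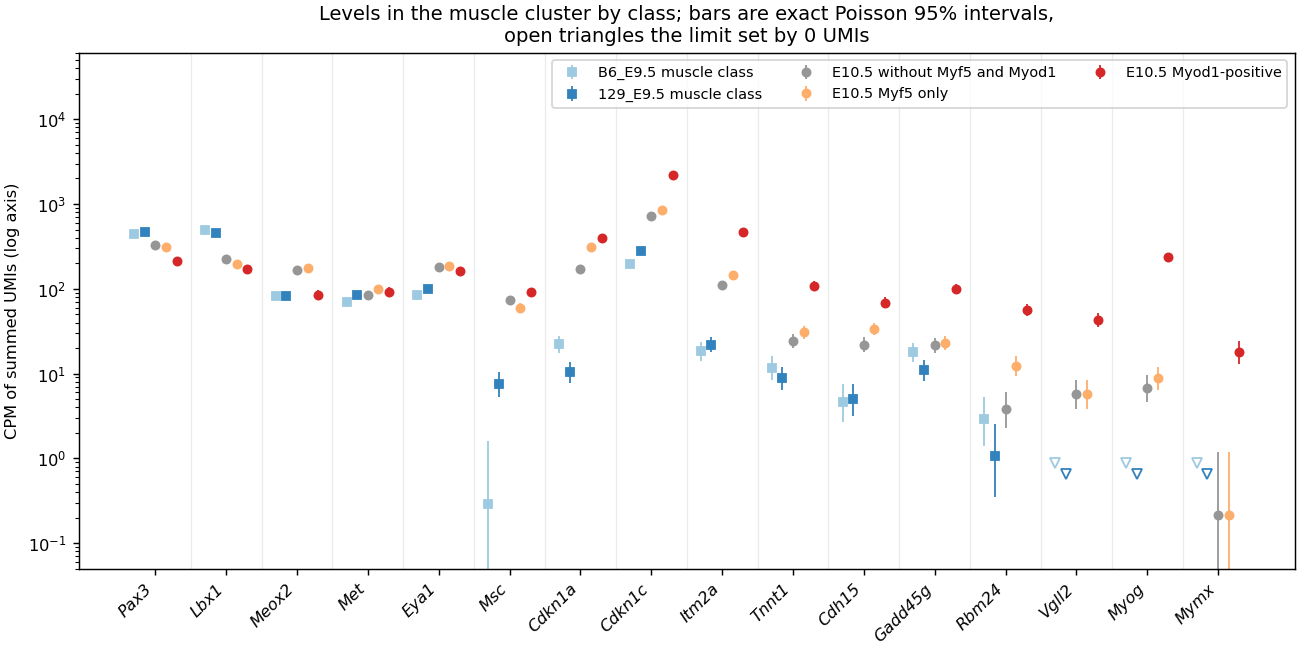
CPM of summed UMIs (log y axis) of 16 genes in 5 classes of muscle-cluster cells: both E9.5 libraries, and uncommitted, Myf5-only and Myod1-positive cells of B6_E10.5. Bars are exact Poisson 95% intervals, some running below the axis, and open triangles mark the limit set by 0 UMIs. Myog stands at 240 CPM in Myod1-positive cells and at or under 8.92 CPM in the other 4 classes, whereas Met is nearly level.

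Since no E9.5 cell was a member, the stage comparison set the members against all non-neuronal muscle-class cells of each E9.5 library, 285 in B6_E9.5 and 591 in 129_E9.5. The uncommitted cells of B6_E10.5, which share these E9.5 cells as reference, are given beside them. A gene counted only when its ratios to both E9.5 classes passed. Of 3067 genes 63 reached 2-fold upward in the members (2.05%) and 47 downward (1.53%). Uncommitted cells gave 50 (1.63%) and 46 (1.5%) of 3060.

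Some of the genes that separated the members from E9.5 did so in uncommitted cells as well. Epha3, an ephrin receptor gene, was at 83.2 CPM in members and 83.8 CPM in uncommitted cells, against 3.5 CPM in B6_E9.5 and 2.81 CPM in 129_E9.5. The protocadherin gene Pcdh17 was at 143 and 176 against 1.75 and 8.21 CPM. The integrin gene Itga4 was at 88.5 and 84.4 CPM against 6.12 and 12.7, and the transcriptional cofactor gene Eya2 at 51.2 and 39.4 against 4.95 and 6.27. In these 4 genes both E10.5 classes stood far above both E9.5 classes. Between the E10.5 classes, the intervals of Epha3 and Itga4 included 1, whereas Pcdh17 was 1.23-fold lower in members (1.12 to 1.35) and Eya2 1.3-fold higher (1.09 to 1.56).

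Another set stood higher in the members than in uncommitted cells as well. Fgf9 was at 55.3 CPM in members, 25.8 CPM in uncommitted cells, 0.583 CPM in B6_E9.5 and 0.864 CPM in 129_E9.5. Cdkn1a was at 341, 173, 22.4 and 10.4 CPM in the same order, which is 15.2-fold (12.1 to 19.4) and 32.9-fold (24.7 to 44.8) over the E9.5 classes. Nrk was at 51.9, 28.8, 2.62 and 0.216 CPM, Pdgfa at 92.5, 58.6, 6.99 and 3.67 CPM, and Cdkn1c at 1309, 726, 196 and 280 CPM. Myog, with 0 UMIs at E9.5, was at least 102-fold higher over B6_E9.5 and at least 138-fold over 129_E9.5, against the limit of 3 UMIs. Hes6 was 5.41-fold (4.55 to 6.48) and 3.86-fold higher (3.38 to 4.41) in members, and its ratios in uncommitted cells were 3.63 and 2.58.

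On the lower side, Kdr, a VEGF receptor gene of endothelium and early mesoderm, had 0 UMIs in the members, at least 384-fold below B6_E9.5 (159 CPM) and at least 190-fold below 129_E9.5 (79.1 CPM). At E9.5 it was found in 175 of 285 and 210 of 591 muscle-class cells. Dlk1, an imprinted growth regulator, was at 13 CPM against 295 and 149 CPM, and Rdh10, which makes retinaldehyde, at 6.23 against 126 and 65.9 CPM. Lin28a, which blocks let-7 maturation, was at 4.57 CPM in members and 9.31 CPM in uncommitted cells, against 80.7 and 42.1 CPM. The immediate early gene Junb was 25.1-fold and 29.7-fold lower in the members, Tcn2 13.4-fold and 21.8-fold, Slc16a3 5.13-fold and 6.28-fold, Tspan12 9.8-fold and 4.92-fold and the neurofilament gene Nefm 21.3-fold and 46.5-fold lower. All had intervals below 1 on both sides. Junb belongs to the list of immediate early and stress genes, which respond to tissue handling among other stimuli. Of 7 measured, 0 were higher and 3 lower (Fos, Junb and Egr1), in the members and likewise in uncommitted cells, where 3.96% and 2.8% of all genes were higher and lower in the members and 3.48% and 2.38% in uncommitted cells by the rule for lists. The list summed to 1249 CPM in members, 1169 CPM in uncommitted cells, 1716 CPM in B6_E9.5 and 2963 CPM in 129_E9.5. Hsp90aa1 alone made up 936 CPM of the sum in members and 855 CPM in uncommitted cells. Fos and Junb were at 2.49 CPM each and Egr1 at 10.4 CPM in members, so the sum says little about these genes. The part of handling in the stage ratios was not tested.

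The lists were read against 416 of 10516 genes higher (3.96%) and 294 lower (2.8%) by the rule for lists, in both ratios. Premyogenic genes had 4 higher, Pax7, Eya2 and Msc among them, and 1 lower (Lbx1) of 14. Lbx1 was at 188 CPM in members, 498 in B6_E9.5 and 459 in 129_E9.5, which is 2.65-fold and 2.44-fold lower, and Pax3 at 279 against 439 and 464 CPM. Migration and adhesion genes had 6 higher and 2 lower of 19, with Cxcr4 at 14.1 against 1.46 and 3.24 CPM and the scavenger receptor Ackr3 at 22.7 CPM against 1 and 5 UMIs. Met was at 96 CPM against 70.5 and 85.4 CPM. Hedgehog genes had 4 higher and 0 lower of 10, with the target gene Gli1 at 19.9 CPM against 2 and 5 UMIs. Notch genes had 5 higher and 0 lower of 11, and Hox genes 1 higher and 7 lower of 17, with Hoxa11 3.3-fold and 3.09-fold lower. Contractile genes had 2 higher (Tnnt1 and Tpm2) and 1 lower (Des) of 12. Uncommitted cells gave like counts in most of these lists, against 3.48% and 2.38% of 10169 genes. Premyogenic genes had 5 higher and 2 lower of 14, and migration and adhesion genes the same 6 higher and 0 lower of 18. Hedgehog genes had 3 and 0 of 9, Notch genes 3 and 0 of 10, Hox genes 2 and 8 of 18 and contractile genes 2 and 2 of 7.

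Among contractile genes of B6_E9.5, 4 picked after their values were seen had their UMIs in 1 or 2 cells. All 140 Acta1 UMIs and all 89 Tnnt2 UMIs of its muscle class lay in 1 cell each, and the 81 Acta2 and 77 Myl4 UMIs in 2 cells each. In 129_E9.5 the same genes had 0, 7, 1 and 3 UMIs, and the members had 1, 2, 107 and 3. The whole contractile list summed to 298.6 CPM in B6_E9.5, 105.5 CPM in 129_E9.5 and 385.2 CPM in the members.

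Other cell types left the following traces in the members. Of 7 endothelial markers 2 were at 0 and the summed level was 26.31 CPM, against 27.72 CPM in uncommitted cells, 192.8 CPM in B6_E9.5 and 119.3 CPM in 129_E9.5. Kdr, found in many E9.5 muscle-class cells as given above, made up most of both E9.5 sums, with 79.1 CPM in 129_E9.5. It was the only endothelial marker lower in members by the rule for lists. Erythroid markers, mostly haemoglobin transcripts found in all classes, summed to 289.3 CPM in members against 280.8, 1118 and 475.6 CPM in the same order of classes. Neuronal markers summed to 42.66 against 60.31, 120.6 and 238.4 CPM, with Nefm alone at 148 CPM in 129_E9.5. Of 6 neuronal markers measured against E9.5, 2 were higher in members (Isl1 and Dcx) and 2 lower (Nefl and Nefm). Markers of somite, sclerotome and dermomyotome summed to 249.3 CPM against 204.8, 841.3 and 523 CPM. Myeloid and megakaryocyte markers were at 4.155 CPM and neural crest markers at 13.99 CPM in the members. Limb mesenchyme markers, none at 0, summed to 389.6 CPM in members and 429.3 CPM in uncommitted cells, or 386 and 336.7 CPM at E9.5. The part of these in the stage ratios was not tested. The muscle progenitor markers summed to 1332 CPM in the members, 1405 CPM in uncommitted cells and 112.8 CPM in mesenchyme.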

How the data were processed

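The authors deposited raw UMI counts per gene and cell as 1 matrix for all 3 libraries, per the file headers, with each cell's stage, strain and cluster number in a second table. Cell Ranger 3 and the build mm10 are given in the submitters' processing notes; the annotation release and the clustering method are not given in the sources used here. Cells were assigned to libraries by stage and strain, and symbols were matched by identifier for 15119 of 15122 genes. No further cell filter and no doublet caller was applied. Of the members, 36 had a barcode found in a further library too; cells were told apart by library and barcode.

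CPM is a gene's summed UMIs over all UMIs of a class (846 members, 7220481 UMIs; 650 uncommitted cells, 4725858 UMIs). Shares carry Clopper-Pearson, CPM Poisson and ratios conditional binomial exact 95% intervals; a count of 0 has a limit of 3 counts. PCR copies share a UMI, and intervals cover counting error only. The interval procedure was tested on simulated data.

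A test with edgeR's quasi-likelihood method across libraries, with library as a block, had been planned. It needs members in at least 2 libraries, and only 1 held any, so no p-value is given and genes were counted by size: a 2-fold difference, where the higher class had 50 CPM and 20 UMIs or more. For the same reason the comparison of stages within members was replaced by members against the whole E9.5 muscle classes, and the genes named are the 12 largest and 12 smallest ratios (8 and 8 for the other comparisons) whose interval excluded 1, plus list members and a fixed set of muscle genes. Further genes named, among them the rest of the 17 higher in Myod1-positive cells, were picked after their values were seen. Some genes that the rule or the lists name are not reported here. TMM factors, an alternative scaling, came from edgeR 4.0.16 in R 4.3.3; other steps used Python 3.11.15 with numpy 2.4.6, scipy 1.17.1 and pandas 2.3.3. Members, gene lists and alternatives were chosen with earlier results of these data known. List genes without a row in the matrix (Itga7, Musk, Sgca, Cav3, Tnnc2, Myh7, Myh8 and Ckm among them) were not analysed here.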

Additional observations from a re-analysis of the deposited data

Results flagged for a closer look

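Outside the muscle cluster, 135 cells of B6_E10.5 had a Myf5 or Myod1 UMI, a signal in cells that no comparison above uses, where both E9.5 libraries had 0 in any cell. They were 118 cells of limb mesenchyme, 14 of the ectodermal cluster 1, 2 of cluster 3 and 1 of cluster 4. In all, 10 of the 135 had 3 or more UMIs of the pair. The 14 ectodermal cells had a median of 12508 UMIs against 5731.5 in their cluster, and the highest of them had 12 Myod1 UMIs. Whether free RNA or cells captured together gave these UMIs was not tested.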

How the results depend on the processing

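The share of members in the E10.5 muscle class was 28.4% with cells thinned to 2000 UMIs and 32.9% with at least 2 Myf5 and Myod1 UMIs. Members against uncommitted cells gave 14 genes higher and 1 lower with a minimum of 20 CPM, 12 higher with at least 2 UMIs of the pair, 1 lower in cells of 4000 to 12000 UMIs, and 384 and 552 with no minimum beyond 1 UMI, which admits genes with few counts. Myod1-positive against Myf5-only cells gave 43 and 14 with a minimum of 20 CPM, 6 lower in cells of 4000 to 12000 UMIs, 34 and 77 in thinned cells, 33 and 8 with at least 2 Myod1 UMIs and 7 lower with each cell weighted equally. Members against E9.5 gave 148 and 117 with a minimum of 20 CPM, and 125 and 152 with a fold of 1.5. Apart from the filters, the cause of these shifts was not tested. Of the single-gene ratios recomputed for Myod1-positive against Myf5-only cells, 164 stayed within their 95% interval, 36 moved beyond it and 1 reversed, Pax7 at 0.739 in thinned cells; for members against uncommitted cells 251 and 35 did, and 0 reversed. TMM factors moved the median log2 ratio from -0.002 to 0.016 and from -0.04 to -0.018 in these 2 comparisons. The TMM factors and the minimum of 20 CPM for members against uncommitted cells, equal weights in either comparison, thinning and the limit of 2 Myod1 UMIs for Myod1-positive against Myf5-only cells, and everything that uses E9.5 or sets Myf5-only against uncommitted cells were chosen after seeing the data.

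No paired analysis was possible because each group has 1 library and the members lie in 1 of the 3; the planned DESeq2 fit, the fit without the library block and those leaving out a library were not run for the same reason. Depth limits what a cell without a Myf5 or Myod1 UMI can show.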
